A study of Arabidopsis thaliana with 15 samples.

Results

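The plant enzymes that remove hydrogen peroxide with ascorbate, peroxiredoxins and thioredoxins are described here through 10 Arabidopsis thaliana genes. They were chosen by gene name from the 37361 genes counted in the study. They comprise 4 ascorbate peroxidases (APX1, APX2, SAPX and TAPX), the dehydroascorbate reductase DHAR1, 3 peroxiredoxins (PRXQ, 2-Cys PRX A and 2-Cys PRX B), the peroxidase GPX1 and the h-type thioredoxin TRX3. The low-count filter kept 9 of the 10, and APX2 did not pass it.

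The study asked which plant transcripts carry NAD+ at their 5′ end, and how well a copper-free and a copper-dependent click reaction recover them. All 15 libraries came from polyadenylated RNA of whole wild-type Col-0 seedlings, 12 days old, with no mutant or stress treatment. In NAD-seq an enzyme exchanges the nicotinamide of an NAD cap for a clickable group, biotin is clicked on, and the RNA is captured on streptavidin. SPAAC is the copper-free click and CuAAC the copper-catalysed click. The 5 groups, with 3 libraries each, were SPAAC NAD-seq and CuAAC NAD-seq of RNA that had been depleted with an antibody against the ordinary m7G cap, SPAAC NAD-seq and CuAAC NAD-seq of mock-depleted RNA (handled without the antibody), and plain mRNA-seq of mock-depleted RNA. The SPAAC and CuAAC aliquots also received E. coli tRNA as carrier. A library made without the tagging enzyme was not analysed here, so captured RNA can include molecules held on the beads without an NAD cap, and a level in NAD-seq is not a count of NAD caps.

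Hydrogen peroxide is formed in chloroplasts in the light and in most other compartments. Ascorbate peroxidases reduce it at the expense of ascorbate, and the oxidised ascorbate is returned by monodehydroascorbate and dehydroascorbate reductases. Peroxiredoxins and plant glutathione peroxidases use a reactive cysteine instead, and in plants they are mostly re-reduced by thioredoxins, small dithiol proteins that are themselves recharged by ferredoxin or NADPH. An NAD cap arises when RNA polymerase begins a transcript with NAD in place of ATP, so the first base of such a transcript is an A in the gene's coding strand.

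The annotated starts of the genes whose levels moved furthest are shown because the first base is where an NAD cap would sit. Sequences, positions and first bases are from the TAIR10.1 RefSeq assembly, 5′ to 3′ on the gene's own strand. Each run is the 29 bases before the annotated start and, as a capital, the first transcribed base.
APX1: atttcgcatttcttctcctcaacgctctcA
DHAR1: cgtgagaaaagataaacatcgggtaaaaaT
PRXQ: attgtgtttctttcttgaattagtatagaC
2-Cys PRX A: acgcatatttgcagcaatagtaatacgacC
2-Cys PRX B: agatagtaggcaaattacaaaatttaaggA
GPX1: gcaaaacaaattccaattatgtctccaaaA
TRX3: tttgagtattaattcttttcctatttgacA
Of the 10 genes, 5 had A as their annotated first base (APX1, APX2, 2-Cys PRX B, GPX1 and TRX3), against 44.1% of 27444 nuclear coding genes. SAPX begins with G, DHAR1 with T, and TAPX, PRXQ and 2-Cys PRX A with C. The tally takes 1 annotated start per gene, and other annotated transcripts can begin elsewhere. APX1 has 8 annotated transcripts, of which 4 begin with A and 3 share the start shown. TAPX and 2-Cys PRX B have 2 transcripts each, of which 1 begins with A, so TAPX would count as an A gene and 2-Cys PRX B would not if the other transcript were taken. An annotated start is not a start measured in these seedlings.

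The depleted SPAAC libraries held 13659501 to 15232302 counts and the depleted CuAAC libraries 6242770 to 7056230. Mock SPAAC libraries held 16707841 to 19798778 counts, mock CuAAC libraries 10720005 to 15932443, and mRNA-seq libraries 3806556 to 9097552. The 9 tested genes and APX2 together held 0.172 ± 0.002% of counts in depleted SPAAC, 0.238 ± 0.004% in depleted CuAAC, 0.260 ± 0.003% in mock SPAAC, 0.334 ± 0.005% in mock CuAAC and 0.143 ± 0.013% in mRNA-seq (SD, n = 3 each). Seedling identity was checked with markers in CPM, which are counts scaled to a common library total. The 4 shoot markers summed to 44658 to 54104 CPM in depleted SPAAC, 63455 to 65067 in depleted CuAAC, 43112 to 47144 in mock SPAAC, 49534 to 52164 in mock CuAAC and 49619 to 57196 in mRNA-seq. The single shoot markers moved in opposite directions. From mock to depleted SPAAC, mean CPM of RBCS1A went from 8379 to 5104 and of RBCS3B from 10505 to 4898. CAB1, the largest part of the sum, went from 19247 to 29076 and RCA from 6442 to 9791. The 4 root markers summed to 1140 to 1476 CPM in depleted libraries, 1742 to 2212 CPM in mock NAD-seq and 1370 to 1441 CPM in mRNA-seq. PYK10 made up most of the root sum, while the root marker CASP1 averaged 6.36 CPM in mock SPAAC and 8.73 CPM in mock CuAAC, against 18.7 CPM in mRNA-seq. Pollen and seed-storage markers each summed to at most 1.85 CPM. The part of these root and shoot differences in the results below was not tested. Per the labels' protocols the libraries of a treatment came from aliquots of the same RNA. A level describes whole seedlings, in which fewer cells of a type and less RNA per cell cannot be told apart.

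Levels below are CPM scaled with edgeR's TMM factors. Changes are log2 fold changes ± SE with Benjamini-Hochberg adjusted p from edgeR's quasi-likelihood test over 21456 genes. A gene passed when its adjusted p was under 0.05, and was called when it also changed at least 2-fold.

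APX1 (AT1G07890, chr1:2437281-2439665, plus strand, 1790 nt of exon) encodes the main cytosolic ascorbate peroxidase. It stood at 335, 342 and 309.6 CPM in depleted SPAAC, 525, 509 and 467 CPM in depleted CuAAC, 621, 631 and 503 CPM in mock SPAAC, 827, 796 and 694 CPM in mock CuAAC, and 414, 351 and 396 CPM in mRNA-seq. Mock CuAAC was therefore highest and depleted SPAAC lowest, and no library of either mock NAD-seq group fell among the mRNA-seq libraries. Against mRNA-seq, APX1 was 1.51-fold higher in mock SPAAC (log2 0.60 ± 0.10, adjusted p = 5.6e-05). In mock CuAAC it was higher by 1.00 ± 0.10 (adjusted p = 3.5e-08), a rise that lay just under the 2-fold threshold and passed it without mock CuAAC replicate 3 (1.10), without mRNA-seq replicate 1 (1.08) or without mRNA-seq replicate 3 (1.04). After m7G depletion APX1 fell in both chemistries, by 0.83 ± 0.10 in SPAAC (adjusted p = 3e-07) and by 0.63 ± 0.10 in CuAAC (adjusted p = 1.6e-05).

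APX2 (AT3G09640, chr3:2956156-2958330, plus strand, 1068 nt) encodes a second cytosolic ascorbate peroxidase, known for its induction by heat and excess light. It had 0 counts in 14 of the 15 libraries and 1 count in depleted CuAAC replicate 1. In a library with 0 counts, up to 3 counts cannot be told from none, so APX2 was not detected at this depth and no fold is given. Its coding sequence is 72.7% identical to that of APX1 over the aligned bases.

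SAPX (AT4G08390, chr4:5314871-5317963, plus strand, 1980 nt) and TAPX (AT1G77490, chr1:29117500-29121093, plus strand, 2516 nt) encode the chloroplast ascorbate peroxidases of the stroma and of the thylakoid membrane, with 77.9% identical coding sequence. SAPX stood at 26.5, 32.8 and 24.3 CPM in depleted SPAAC, 38.7, 32.8 and 33.9 CPM in depleted CuAAC, 47.8, 50 and 40.9 CPM in mock SPAAC, 49.4, 51.7 and 42.3 CPM in mock CuAAC, and 39.5, 41.3 and 38.9 CPM in mRNA-seq. TAPX stood at 75.1, 89.9 and 79.9 CPM in depleted SPAAC, 92.9, 98.1 and 90.4 CPM in depleted CuAAC, 103, 128 and 97.8 CPM in mock SPAAC, 109.8, 127.5 and 119.9 CPM in mock CuAAC, and 90.0, 92.3 and 105 CPM in mRNA-seq. For both genes the libraries of mock SPAAC overlapped those of mRNA-seq and those of mock CuAAC. Neither passed in mock SPAAC against mRNA-seq (SAPX 0.22 ± 0.12, adjusted p = 0.19; TAPX 0.19 ± 0.10, adjusted p = 0.17). In mock CuAAC against mRNA-seq TAPX rose by 0.31 ± 0.10 (adjusted p = 0.019), while SAPX, at 0.27 ± 0.12, did not pass (adjusted p = 0.08). Depletion lowered SAPX by 0.73 ± 0.11 in SPAAC (adjusted p = 1.3e-05) and by 0.45 ± 0.12 in CuAAC (adjusted p = 0.0035). TAPX fell by 0.43 ± 0.10 in SPAAC (adjusted p = 0.0013) and by 0.34 ± 0.10 in CuAAC (adjusted p = 0.0088). Per exon length, SAPX stood at 0.433 ± 0.040 of TAPX in depleted SPAAC, 0.477 ± 0.053 in depleted CuAAC, 0.539 ± 0.046 in mock SPAAC, 0.512 ± 0.062 in mock CuAAC and 0.532 ± 0.054 in mRNA-seq (SD, n = 3 each), so TAPX was the more abundant in every group.

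**Figure D1:**
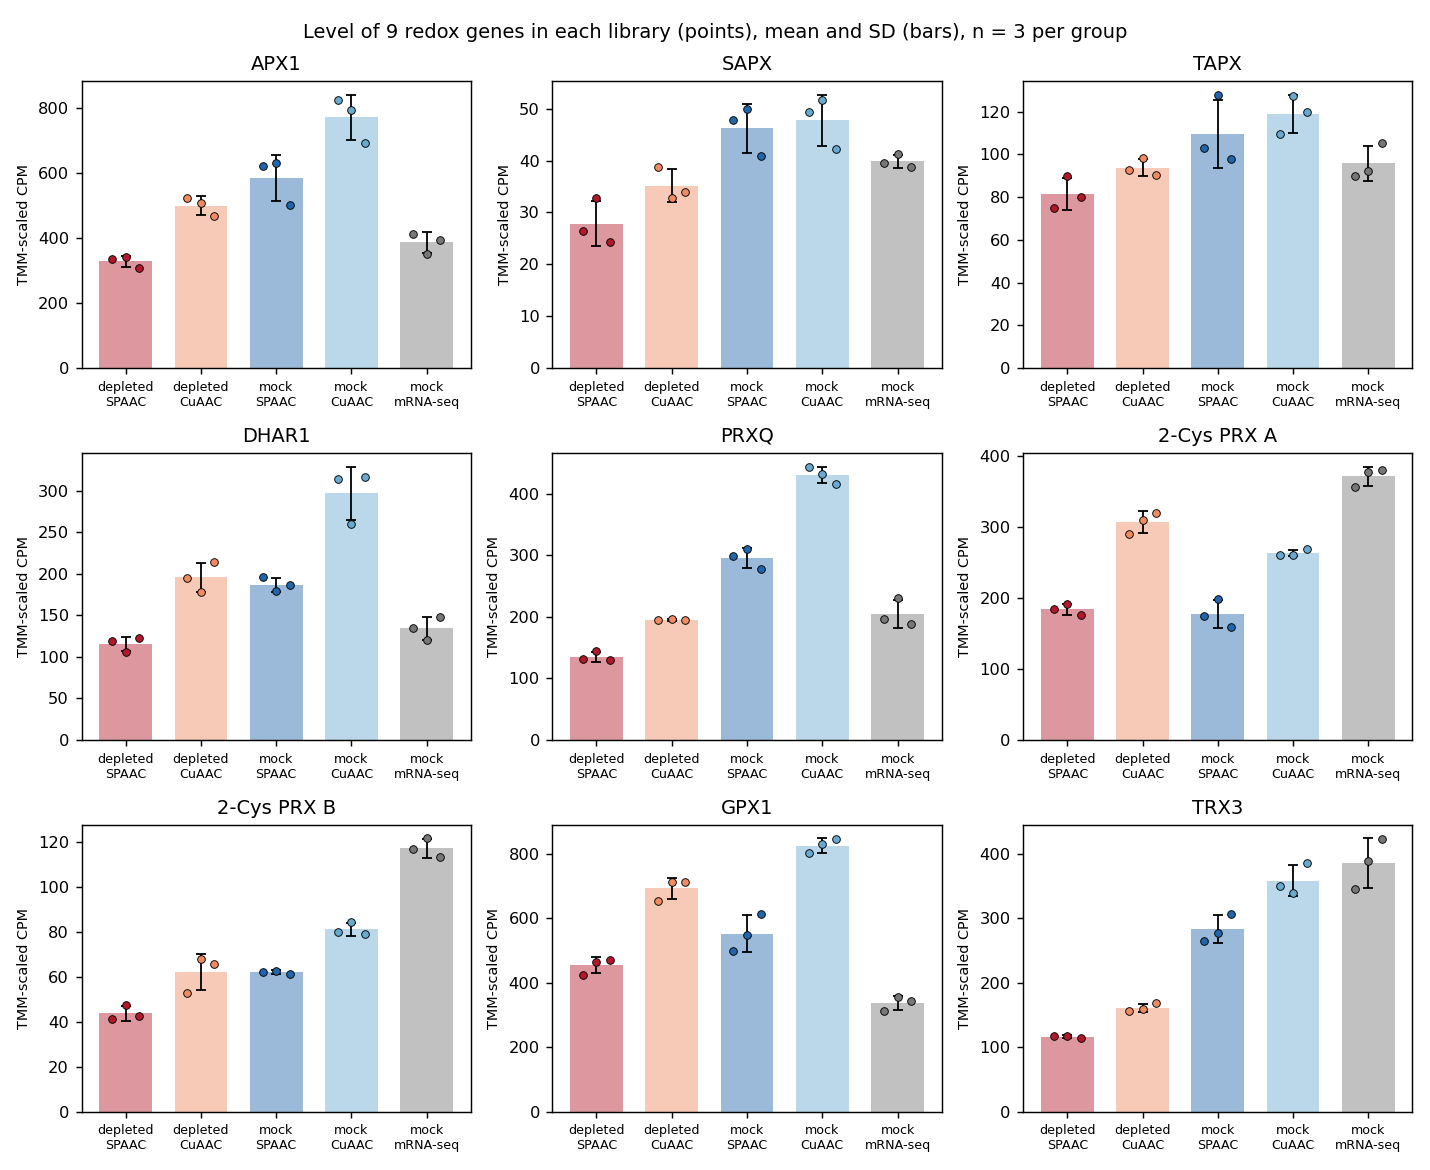
TMM-scaled CPM (vertical axis, from 0) of the 9 tested genes in each library (points), with the group mean (bar) and SD (error bar), n = 3 per group. Depleted CuAAC and mock CuAAC bars stand above the matching SPAAC bars for all 9 genes, though for SAPX and TAPX the libraries of mock CuAAC and mock SPAAC overlap. For SAPX those of depleted CuAAC and depleted SPAAC overlap as well. The highest bar of 2-Cys PRX A, 2-Cys PRX B and TRX3 is that of mRNA-seq.

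DHAR1 (AT1G19570, chr1:6773302-6774523, minus strand, 912 nt) encodes a dehydroascorbate reductase that regenerates ascorbate outside the chloroplast. It stood at 119, 106 and 122 CPM in depleted SPAAC, 195, 179 and 214 CPM in depleted CuAAC, 196, 179 and 186 CPM in mock SPAAC, 315, 260.5 and 317 CPM in mock CuAAC, and 135, 120.4 and 148 CPM in mRNA-seq. The levels in depleted CuAAC and mock SPAAC overlapped, and every mock CuAAC library lay above every library of the other groups. DHAR1 was 2.21-fold higher in mock CuAAC than in mRNA-seq (log2 1.14 ± 0.10, adjusted p = 7.4e-09) and 1.39-fold higher in mock SPAAC (0.47 ± 0.10, adjusted p = 0.0008). Depletion lowered it by 0.69 ± 0.10 in SPAAC (adjusted p = 3.9e-06) and by 0.60 ± 0.10 in CuAAC (adjusted p = 3e-05). Of its 31-base exon windows, 19.8% also occur at AT1G19550 or AT1G19540, which had 17 and 486 counts over all libraries, against 36333 for DHAR1. Reads from those windows could not be assigned with certainty.

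PRXQ (AT3G26060, chr3:9524590-9526501, plus strand, 1273 nt) encodes a chloroplast peroxiredoxin that works as a single subunit. It stood at 131, 145 and 131 CPM in depleted SPAAC, 195, 196 and 194 CPM in depleted CuAAC, 299, 309.9 and 278.5 CPM in mock SPAAC, 443, 433 and 417 CPM in mock CuAAC, and 197, 230.0 and 188 CPM in mRNA-seq. The mock NAD-seq libraries were all above mRNA-seq, the depleted SPAAC libraries were all below it, and depleted CuAAC overlapped it. In mock CuAAC PRXQ was 2.11-fold above mRNA-seq (log2 1.08 ± 0.08, adjusted p = 1.2e-09), and in mock SPAAC 1.45-fold above it (0.53 ± 0.08, adjusted p = 3.5e-05). Depletion brought PRXQ down 2.18-fold in SPAAC (-1.13 ± 0.08, adjusted p = 5e-10) and 2.21-fold in CuAAC (-1.14 ± 0.08, adjusted p = 8.3e-10).

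2-Cys PRX A (AT3G11630, chr3:3672036-3674159, plus strand, 1176 nt) and 2-Cys PRX B (AT5G06290, chr5:1919080-1921425, plus strand, 1447 nt) encode the abundant pair of dimer-forming chloroplast peroxiredoxins, with 83.5% identical coding sequence. A single 31-base exon window of 2-Cys PRX B also occurs in 2-Cys PRX A. 2-Cys PRX A stood at 184, 191 and 176 CPM in depleted SPAAC, 289, 309 and 319.9 CPM in depleted CuAAC, 174, 198 and 159.6 CPM in mock SPAAC, 261, 259.8 and 269 CPM in mock CuAAC, and 355, 377.5 and 380.5 CPM in mRNA-seq. 2-Cys PRX B stood at 41.2, 47.7 and 42.8 CPM in depleted SPAAC, 53.1, 67.8 and 66.0 CPM in depleted CuAAC, 62.2, 62.9 and 61.4 CPM in mock SPAAC, 80.2, 84.6 and 79.0 CPM in mock CuAAC, and 117, 122 and 113 CPM in mRNA-seq. Unlike PRXQ, both genes were highest in mRNA-seq, with no overlap with any NAD-seq group.

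In mock SPAAC 2-Cys PRX A was 2.09-fold lower than in mRNA-seq (log2 -1.06 ± 0.08, adjusted p = 2.3e-09) and 2-Cys PRX B 1.88-fold lower (-0.91 ± 0.09, adjusted p = 1e-07). Without mock SPAAC replicate 3 the change of 2-Cys PRX A was -0.99, under the 2-fold threshold. In mock CuAAC 2-Cys PRX A fell by 0.50 ± 0.08 (adjusted p = 4e-05) and 2-Cys PRX B by 0.53 ± 0.09 (adjusted p = 6.8e-05), but scaling to library totals turned both CuAAC changes slightly positive, at 0.10 and 0.07. Depletion separated the pair. 2-Cys PRX B fell by 0.50 ± 0.09 in SPAAC (adjusted p = 7.3e-05) and by 0.38 ± 0.09 in CuAAC (adjusted p = 0.0016). 2-Cys PRX A changed by 0.05 ± 0.08 in SPAAC, which did not pass (adjusted p = 0.61), and rose by 0.22 ± 0.08 in CuAAC (adjusted p = 0.032). Per exon length, 2-Cys PRX A stood 5.17 ± 0.297 times as high as 2-Cys PRX B in depleted SPAAC and 6.09 ± 0.560 times as high in depleted CuAAC, against 3.51 ± 0.342 times in mock SPAAC and 3.99 ± 0.203 times in mock CuAAC (SD, n = 3 each). The ratio in mRNA-seq was 3.90 ± 0.209, and within each chemistry no depleted library overlapped a mock library in this ratio.

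The counting did not keep strands apart, and the 172 exon bases that 2-Cys PRX A shares with the opposite-strand gene AT3G11620 make up 14.6% of its exons. Counts of AT3G11620 were equal to 36.2% to 42.4% of those of 2-Cys PRX A in the group means. Subtracting them left the changes of 2-Cys PRX A with the same direction and the same call in every comparison. Because the share was similar in all 5 groups, the subtraction lowered each group nearly alike. It could hardly move a change, so it does not settle what the overlap adds. The levels of 2-Cys PRX A and its ratios to 2-Cys PRX B are given without subtraction and may be too high.

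GPX1 (AT2G25080, chr2:10667898-10670127, plus strand, 1246 nt) encodes a chloroplast peroxidase of the glutathione peroxidase family, which in plants draws its electrons mainly from thioredoxin. It stood at 425, 465 and 471 CPM in depleted SPAAC, 655, 713 and 712 CPM in depleted CuAAC, 498, 547 and 613 CPM in mock SPAAC, 801.5, 829.6 and 846 CPM in mock CuAAC, and 314, 357 and 344 CPM in mRNA-seq. All 12 NAD-seq libraries lay above all 3 mRNA-seq libraries. GPX1 was 2.44-fold higher in mock CuAAC than in mRNA-seq (log2 1.29 ± 0.09, adjusted p = 1.3e-10) and 1.64-fold higher in mock SPAAC (0.71 ± 0.08, adjusted p = 1.2e-06). It stayed above mRNA-seq after depletion, by 1.04 ± 0.09 in CuAAC (adjusted p = 3.2e-09) and by 0.42 ± 0.08 in SPAAC (adjusted p = 0.00022). Depleted against mock, GPX1 fell by 0.28 ± 0.08 in SPAAC (adjusted p = 0.0068) and by 0.25 ± 0.08 in CuAAC (adjusted p = 0.017), and with length and GC offsets both changes turned positive, at 0.31 and 0.30.

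TRX3 (AT5G42980, chr5:17242607-17244231, plus strand, 1035 nt) encodes a cytosolic h-type thioredoxin. It stood at 117, 118 and 114 CPM in depleted SPAAC, 156.5, 159.6 and 168 CPM in depleted CuAAC, 264, 278 and 307 CPM in mock SPAAC, 350.0, 339.6 and 386 CPM in mock CuAAC, and 346, 389 and 422 CPM in mRNA-seq. The depleted libraries were the lowest by a wide margin, and mock CuAAC overlapped mRNA-seq. TRX3 was 2.43-fold lower in depleted than in mock SPAAC (log2 -1.28 ± 0.09, adjusted p = 1.6e-10) and 2.22-fold lower in depleted than in mock CuAAC (-1.15 ± 0.09, adjusted p = 1.3e-09). Against mRNA-seq it fell by 0.45 ± 0.09 in mock SPAAC (adjusted p = 0.00033), while in mock CuAAC, at -0.11 ± 0.09, it did not pass (adjusted p = 0.34); both values turned positive with library totals, at 0.27 and 0.49. The opposite-strand gene AT5G42990 shares 245 exon bases with TRX3, and its counts were equal to 2.7% to 6.5% of those of TRX3 in the group means. Subtracting them changed no call, and counts this few could move the changes only a little.

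Mock SPAAC NAD-seq against mRNA-seq showed the 9 genes divided by direction. APX1, DHAR1, PRXQ and GPX1 were higher in NAD-seq, and both 2-Cys peroxiredoxins and TRX3 were lower. By the 2-fold call 1 gene was lower, 2-Cys PRX A, against 5.17% of all tested genes, and 0 were higher, against 1.90%. By adjusted p alone 7 of the 9 passed, against 32.4% in either direction (edgeR; DESeq2 also called 0 higher and 1 lower, and 4 were higher at an unadjusted p under 0.05). The median change of the 9 was 0.22, beside 0.07 over all tested genes. Which genes counted as higher depended on the scaling: with library totals the all-gene median moved to 0.80, and APX1 (1.31), DHAR1 (1.20), PRXQ (1.24) and GPX1 (1.42) were called higher while 2-Cys PRX A, at -0.35, was not called. Of all tested genes library totals called 6901 higher and 356 lower, in place of 407 and 1109.

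Mock CuAAC NAD-seq against mRNA-seq gave larger rises. DHAR1, PRXQ and GPX1, 3 of the 9 genes, were called higher, against 5.09% of all tested genes, and 0 were called lower, against 11.2% (edgeR; DESeq2 gave the same 3 and 0, and 2 were lower at an unadjusted p under 0.05). By adjusted p alone 5 were higher, against 20.9%, and 2 were lower, against 24.4%. The median of the 9 was 0.31, beside 0.01 over all tested genes, and library totals moved the all-gene median to 0.62. Changes in this comparison also varied with transcript length, from a median of 0.30 for 4443 nuclear coding genes with 1000 to 1500 nt of exon to -0.72 for 2454 genes over 3000 nt. With length and GC offsets DHAR1, PRXQ and GPX1 stood at 0.97, 0.80 and 0.97, so that all 3 still passed by adjusted p and none was called. Of all tested genes the offsets called 672 higher and 1922 lower, in place of 1093 and 2405.

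**Figure D2:**
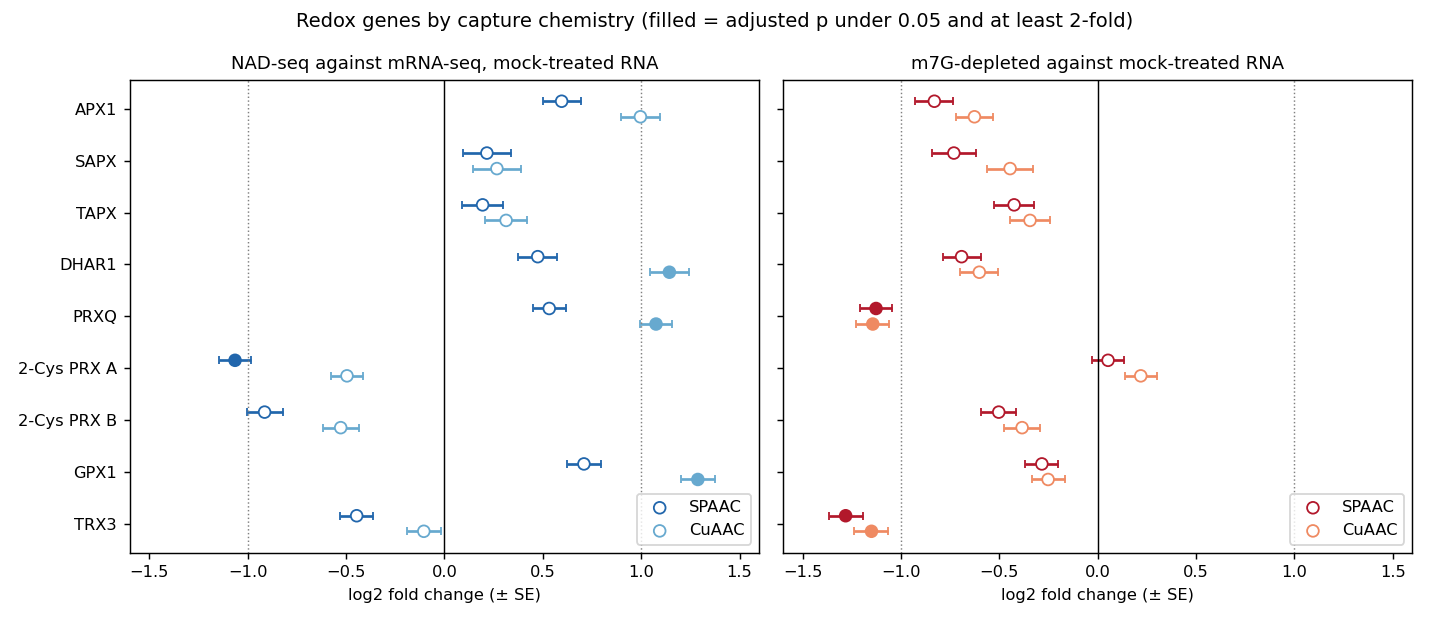
Log2 fold change ± SE (horizontal axis) of the 9 tested genes, with NAD-seq against mRNA-seq on mock-treated RNA on the left and m7G-depleted against mock-treated RNA on the right, SPAAC and CuAAC as separate points. Filled points were called. On the left the points of APX1, DHAR1, PRXQ and GPX1 lie right of 0 and those of 2-Cys PRX A, 2-Cys PRX B and TRX3 left of it, and with library totals the CuAAC points of those 3 genes and the SPAAC point of TRX3 turned positive; on the right all but 2-Cys PRX A lie left of 0, and GPX1 turned positive with length and GC offsets.

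After m7G depletion most of these genes were lower relative to the rest of the captured RNA. In depleted against mock SPAAC, 2 of the 9 genes, PRXQ and TRX3, were called lower, against 9.66% of all tested genes, and 0 were called higher, against 7.37%. By adjusted p alone 8 of 9 were lower, against 26.7%, and 0 were higher, against 27.5% (edgeR; DESeq2 also called 2 lower and 0 higher, and 0 were higher at an unadjusted p under 0.05). In depleted against mock CuAAC the same 2 genes were called lower, against 8.24%, with 0 called higher, against 6.32%. By adjusted p alone 8 were lower, against 23.0%, and 1 was higher, against 24.3% (DESeq2 again called 2 lower and 0 higher, and 1 was higher at an unadjusted p under 0.05). The median change of the 9 was -0.69 in SPAAC and -0.45 in CuAAC.

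Transcript length moved with these depletion changes across the whole transcriptome. In SPAAC the median change was -0.82 for 2660 nuclear coding genes of up to 1000 nt of exon, -0.42 at 1000 to 1500 nt, -0.04 at 1500 to 2000 nt, 0.31 at 2000 to 3000 nt and 0.87 above 3000 nt. In CuAAC the medians of the same classes were -0.73, -0.37, -0.01, 0.29 and 0.79. The 10 genes have 912 to 2516 nt of exon, with a median of 1259.5 nt. In a fit with length and GC offsets PRXQ and TRX3 stayed lower, at -0.70 and -0.54 in SPAAC and at -0.80 and -0.48 in CuAAC, and neither was called. Of all tested genes that fit called 656 lower in SPAAC, in place of 2073, and 669 lower in CuAAC, in place of 1767. DHAR1 stood at -0.04 in SPAAC and -0.07 in CuAAC in that fit, and 2-Cys PRX A at 0.54 and 0.60. The part of length in the depletion changes of single genes was not tested.

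The depletion changes were not found to differ between the chemistries. In the interaction test, SPAAC change minus CuAAC change, values ran from -0.29 ± 0.16 for SAPX to 0.02 ± 0.12 for PRXQ. By edgeR 0 of the 9 genes passed or were called, against 0.00% higher and 0.00466% lower of all tested genes by the 2-fold call, and against 0.00466% higher and 0.00932% lower by adjusted p alone. DESeq2 also called 0, and 0 reached an unadjusted p under 0.05. With the replicate block 25 genes of all tested were higher and 93 lower by adjusted p alone, in place of 1 and 2, and 0 of these 9 passed (smallest adjusted p = 0.24, APX1). With standard errors of up to 0.16 on the log2 scale, small differences between the chemistries were not detectable.

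SPAAC gave lower levels than CuAAC for most of these genes, in mock and in depleted RNA alike. In mock SPAAC against mock CuAAC the 7 genes other than SAPX and TAPX were lower by adjusted p alone, against 15.1% of all tested genes, and 0 were higher, against 21.5%. Their changes ran from -0.67 ± 0.10 for DHAR1 (adjusted p = 1.3e-05) to -0.34 ± 0.08 for TRX3 (adjusted p = 0.003). SAPX stood at -0.05 ± 0.11 (adjusted p = 0.76) and TAPX at -0.12 ± 0.10 (adjusted p = 0.38). The 2-fold call was reached by 0 genes, with 0.508% of all tested genes called lower and 6.47% higher (edgeR; DESeq2 also called 0, and 7 were lower at an unadjusted p under 0.05). In depleted SPAAC against depleted CuAAC 8 genes, all but TAPX, were lower by adjusted p alone, against 17.3%, with 0 higher, against 21.7%. Changes ran from -0.76 ± 0.10 for DHAR1 (adjusted p = 2.9e-06) to -0.20 ± 0.10 for TAPX (adjusted p = 0.13), and 0 genes were called, with 0.895% of all tested genes called lower and 7.30% higher (edgeR; DESeq2 also called 0, and 8 were lower at an unadjusted p under 0.05). Length moved with this contrast as well: in mock RNA its median was -0.32 up to 1000 nt and 0.74 above 3000 nt.

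Depleted RNA set against mRNA-seq of mock RNA combines capture and depletion. In depleted SPAAC 3 genes, TRX3 (-1.73 ± 0.09, adjusted p = 9.8e-13), 2-Cys PRX B (-1.42 ± 0.09, adjusted p = 5e-11) and 2-Cys PRX A (-1.01 ± 0.08, adjusted p = 1.3e-09), were called lower, against 13.8% of all tested genes. In that comparison 0 were called higher, against 10.9%, and GPX1 alone rose by adjusted p, at 0.42, so that 1 gene passed higher, against 29.4%, and 6 lower, against 25.6% (DESeq2 called 3 lower and 0 higher, and 1 was higher at an unadjusted p under 0.05). With library totals TRX3 stood at -0.98, 2-Cys PRX B at -0.67 and 2-Cys PRX A at -0.27, none of them called, and GPX1 at 1.17 was called. Of all tested genes library totals called 8641 higher and 985 lower, in place of 2340 and 2959. With length and GC offsets TRX3 (-0.93) and 2-Cys PRX A (-0.48) were not called, and DHAR1 stood at 0.58 in place of -0.22. Of all tested genes the offsets called 1540 higher and 1594 lower. Without depleted SPAAC replicate 3 the change of 2-Cys PRX A was -0.98 and no longer called. In depleted CuAAC GPX1 (1.04) was called higher, 1 gene against 5.39%, and TRX3 (-1.26 ± 0.09, adjusted p = 2.4e-10) was called lower, 1 gene against 12.6%. TRX3 was no longer called there with library totals (-0.63) or with length and GC offsets (-0.84), and DHAR1 was called higher with library totals (1.17). By adjusted p alone 3 passed higher, against 21.3%, and 3 lower, against 23.7%.

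The order of the genes by level per exon length differed between mRNA-seq and NAD-seq. In mRNA-seq it ran, in CPM per kb, from TRX3 at 372.8 through 2-Cys PRX A at 315.6, GPX1 at 271.6, APX1 at 216 and PRXQ at 161 to DHAR1 at 147, followed by 2-Cys PRX B at 81.1, TAPX at 38.1 and SAPX at 20.1. Of these neighbours, PRXQ and DHAR1 overlapped in their libraries. The level of 2-Cys PRX A may include reads of the opposite-strand AT3G11620, whose counts equalled 36.2% of its own in mRNA-seq. Its place above GPX1 and APX1 in mRNA-seq is therefore uncertain. GPX1 was the highest in each NAD-seq group, at 364 CPM per kb in depleted SPAAC, 556 in depleted CuAAC, 444 in mock SPAAC and 663 in mock CuAAC, with no library of the next gene reaching it. APX1 came next in each of these groups, though its libraries overlapped those of the gene after it in depleted CuAAC and in mock SPAAC. TRX3 stood at 112 CPM per kb in depleted SPAAC and 156 in depleted CuAAC, where it overlapped PRXQ, against 273 in mock SPAAC and 346 in mock CuAAC. SAPX was the lowest of the 9 in every group, at 14.1 CPM per kb in depleted SPAAC, 17.7 in depleted CuAAC, 23.3 in mock SPAAC and 24.1 in mock CuAAC. TAPX and 2-Cys PRX B overlapped in depleted SPAAC, depleted CuAAC and mock SPAAC.

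The rest of the pathway was read from lists of 60 further genes, of which 56 were tested. After depletion the other thioredoxins were mostly lower. In depleted against mock SPAAC 17 of 18 tested were lower by adjusted p alone, against 26.7% of all tested genes, and 8 were called lower, against 9.66%. In CuAAC 15 were lower, against 23.0%, and 5 were called (8 without depleted CuAAC replicate 1), against 8.24%, with 0 higher in either chemistry. Their medians were -0.96 and -0.88, beside medians of -0.09 and 0.10 for the 16 other ascorbate-pathway genes. The cytosolic thioredoxins TRX5 (-2.0 ± 0.13, adjusted p = 7.2e-11) and TRX2 (-1.57 ± 0.14, adjusted p = 7.9e-09) had the largest falls of the list in SPAAC, and in CuAAC they fell by 1.75 ± 0.13 and 1.18 ± 0.15. Thioredoxin genes are short, with a median of 950 nt of exon over the list of 20, against 1671.5 nt for the ascorbate list. With length and GC offsets 1 thioredoxin was called in SPAAC and 0 in CuAAC. Calls fell over all 21456 tested genes too. The offsets left 929 higher and 656 lower in SPAAC, in place of 1582 and 2073. In CuAAC they left 777 and 669, in place of 1357 and 1767.

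Of the other peroxiredoxins and sulfiredoxin, 6 were tested. In depleted against mock SPAAC 4 were lower by adjusted p alone, against 26.7% of all tested genes. In CuAAC 5 were lower, against 23.0%. In both chemistries 0 were higher, against 27.5% in SPAAC and 24.3% in CuAAC. PRXIIB, a cytosolic type II peroxiredoxin, fell by 1.23 ± 0.16 in SPAAC (adjusted p = 6.1e-06) and by 1.01 ± 0.16 in CuAAC (adjusted p = 6.6e-05), and PRXIIE, the chloroplast type II enzyme, fell by 1.02 ± 0.08 in SPAAC. Among 6 thioredoxin reductase genes, 1 was higher by adjusted p alone in each chemistry, against 27.5% (SPAAC) and 24.3% (CuAAC). In SPAAC 4 were lower, against 26.7%, and in CuAAC 3, against 23.0%. FTRA1, a subunit of the ferredoxin-thioredoxin reductase, fell by 1.54 ± 0.11 in SPAAC and by 1.39 ± 0.11 in CuAAC. Of the 16 ascorbate-pathway genes 3 were higher and 5 lower by adjusted p alone in SPAAC, against 27.5% and 26.7% of all tested genes, and 4 higher and 3 lower in CuAAC, against 24.3% and 23.0%. By the 2-fold call 7.37% of all tested genes were higher and 9.66% lower in SPAAC, and 6.32% and 8.24% in CuAAC. Of the ascorbate list 0 were called by edgeR or DESeq2, with 1 called without depleted SPAAC replicate 1. Its gene with the smallest adjusted p was APX6, an ascorbate peroxidase-related gene, in SPAAC (0.78 ± 0.12, adjusted p = 9.3e-06) and MDAR6, an organellar monodehydroascorbate reductase, in CuAAC (0.63 ± 0.09, adjusted p = 7.8e-06). In the glutathione list, where 10 were tested, 4 were higher by adjusted p alone in each chemistry, against 27.5% (SPAAC) and 24.3% (CuAAC). In SPAAC 3 were lower, near the all-gene 26.7%, and in CuAAC 4, against 23.0%. By edgeR or DESeq2 0 of this list were called, with 1 called in CuAAC without depleted CuAAC replicate 1. GSH1, the first enzyme of glutathione synthesis, rose by 0.68 ± 0.08 in both chemistries (adjusted p = 2.5e-07 in SPAAC and 4.1e-07 in CuAAC).

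**Figure D3:**
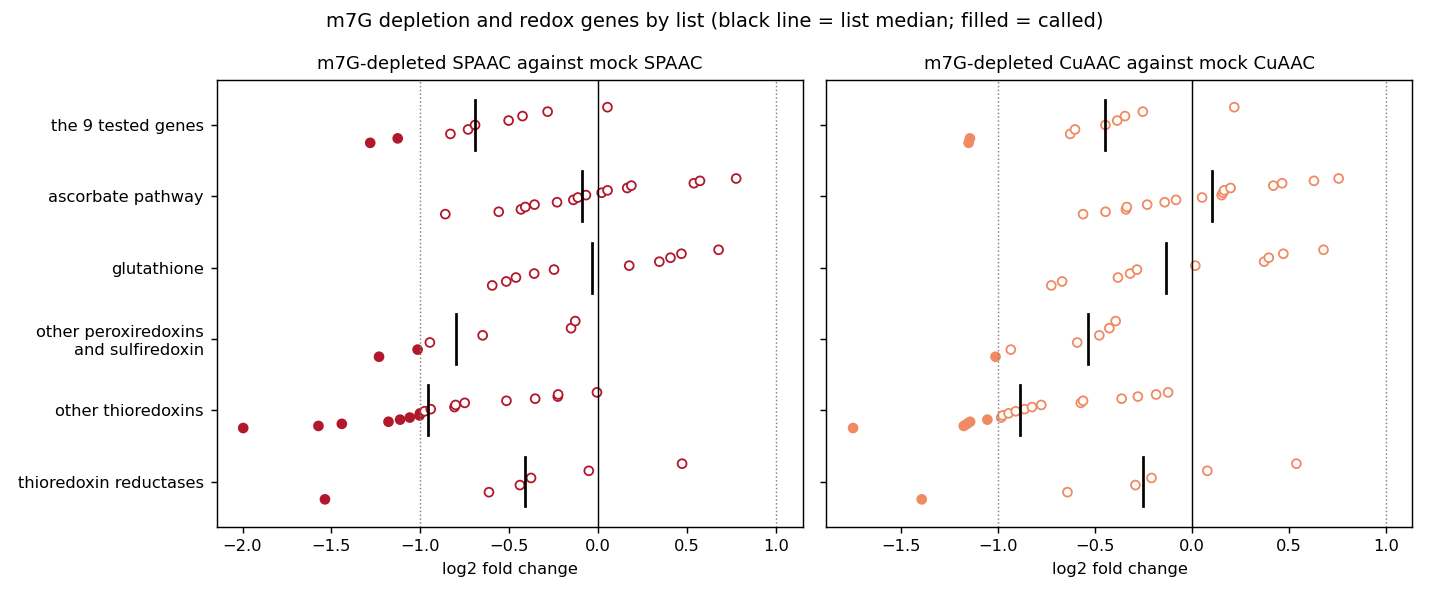
Log2 fold change of m7G-depleted against mock RNA (horizontal axis) for each tested gene (points) of the 9 described genes and of 5 further lists, SPAAC on the left and CuAAC on the right, with the list median as a black line and called genes filled. The other thioredoxins lie furthest left, with medians of -0.96 and -0.88, and the ascorbate and glutathione lists lie on both sides of 0.

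In mock SPAAC against mRNA-seq 27 of the 56 further genes passed by adjusted p alone, against 32.4% of all tested genes in either direction. In mock CuAAC 31 were higher, against 20.9%, and 7 were lower, against 24.4%. VTC1, which makes a sugar nucleotide needed for ascorbate, fell by 1.04 ± 0.09 in mock SPAAC (adjusted p = 2.5e-08) and by 0.83 ± 0.09 in mock CuAAC (adjusted p = 3.5e-07). GR2, the organellar glutathione reductase, rose by 0.86 ± 0.11 in SPAAC (adjusted p = 1.9e-06) and by 0.92 ± 0.11 in CuAAC (adjusted p = 4e-07). PRXIIE rose by 1.38 ± 0.09 in mock CuAAC (adjusted p = 5.7e-11), as did the chloroplast thioredoxin THM4, by 1.03 ± 0.08 (adjusted p = 1.3e-09), the cytosolic thioredoxin TRX4, by 1.06 ± 0.17 (adjusted p = 2.3e-05), and FTRA2, by 1.06 ± 0.09 (adjusted p = 3.3e-09). Changes in this comparison varied with transcript length, as given above, and the part of length in these rises was not tested. PRXIIC, a type II peroxiredoxin with 25.8% of its exon windows found elsewhere and 48.7% of its exon bases shared with an opposite-strand gene, fell by 1.11 ± 0.13 in mock SPAAC and by 1.65 ± 0.14 in mock CuAAC, and its values are uncertain. In mock SPAAC against mRNA-seq the smallest adjusted p among the thioredoxins was that of THX, which fell by 0.86 ± 0.09, and among the reductases that of FTRB, which fell by 0.73 ± 0.10. With library totals VTC1 stood at -0.32, THX at -0.14 and FTRB at -0.01 in mock SPAAC. In mock SPAAC against mock CuAAC 0 of the 56 were called by edgeR or DESeq2 (1 without mock CuAAC replicate 2). Of all tested genes 6.47% were called higher and 0.508% lower. By adjusted p alone 4 of the 56 were higher, against 21.5%, and 27 lower, against 15.1%. Among the lower were 13 of the 18 other thioredoxins.

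How far each of the 9 genes depended on scaling is shown for a capture contrast and a depletion contrast. For mock CuAAC against mRNA-seq, library totals shifted every gene upward with the all-gene median, and length and GC offsets changed the fold by less. For depleted against mock SPAAC, library totals made little difference, while length and GC offsets moved DHAR1, 2-Cys PRX A, GPX1 and TRX3 most.

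**Figure D4:**
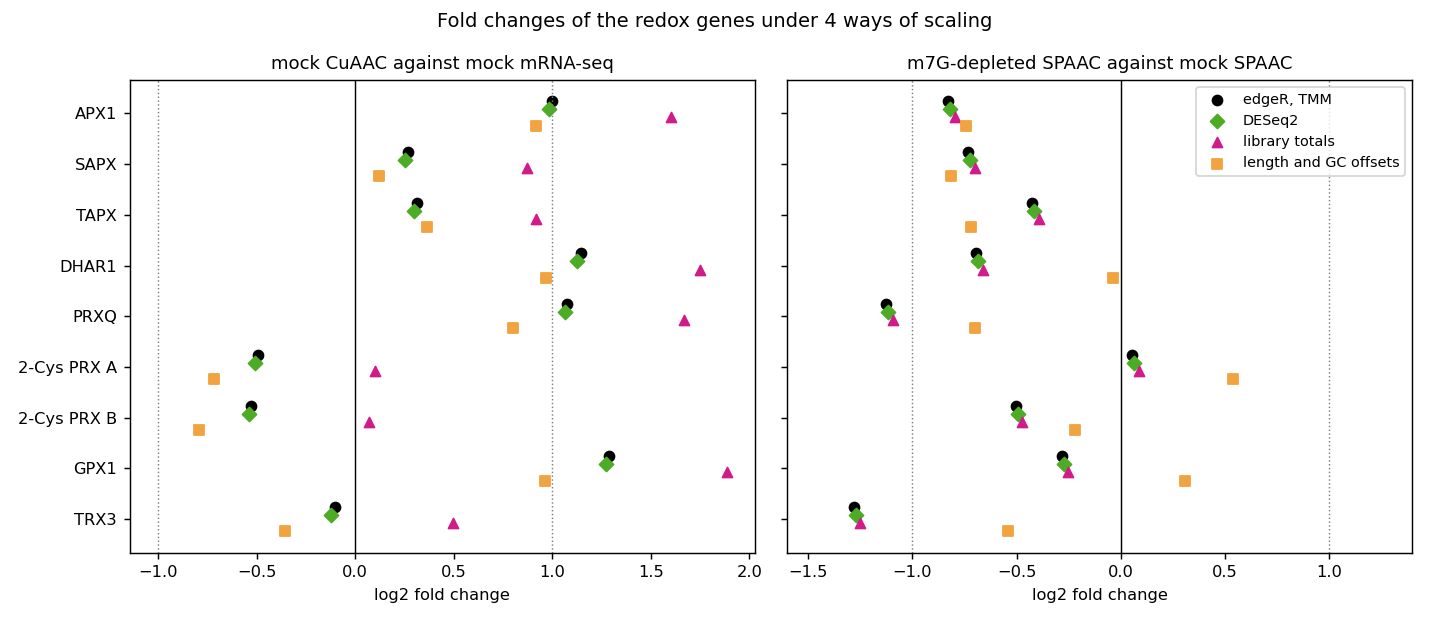
Log2 fold change (horizontal axis) of the 9 tested genes under 4 ways of scaling: edgeR with TMM, DESeq2, library totals, and length and GC offsets, for mock CuAAC against mRNA-seq (left) and depleted against mock SPAAC (right), with dotted lines at 2-fold. On the left 2-Cys PRX A, 2-Cys PRX B and TRX3 change sign with library totals (0.10, 0.07 and 0.49), and on the right GPX1 changes sign with the offsets (0.31).

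Each gene was also set beside the tested gene, at a mean of at least 10 CPM, whose log2 CPM followed it most closely over the 15 libraries, as a description. The 15 libraries make up 5 groups that differ in chemistry and depletion, so r includes the differences between groups. Pearson's r was 0.993 between TRX3 and LP1, 0.992 between PRXQ and OHP2, 0.989 between 2-Cys PRX B and AT3G49910, and 0.988 both between APX1 and TSA1 and between DHAR1 and AT1G36980. GPX1 followed CBR at 0.982, TAPX followed AT4G01310 at 0.966 and SAPX followed AT1G71730 at 0.950. For 2-Cys PRX A the nearest gene was its overlapping neighbour AT3G11620, at 0.974. Among the 9 genes themselves, APX1 lay nearest to DHAR1, at 0.923, 2-Cys PRX B lay nearest to TRX3, at 0.857, and 2-Cys PRX A lay nearest to 2-Cys PRX B, at 0.777.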

How the data were processed

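The authors deposited raw read counts, whole numbers per gene and library, with a summed exon length per gene (unit: other), per the file headers. Of tools, STAR 2.7.3a, featureCounts 2.0.0 and DESeq2 are listed in the submitters' processing notes, with no step attached, and a genome build is not given in those notes or the labels. Of 37361 gene identifiers 37065 (99.2%) matched TAIR10.1, and 99.5% of those had the same exon length there, so names, positions and sequences were taken from TAIR10.1. Of 1877 opposite-strand gene pairs with over 1000 counts each, 29 had identical counts in every library, which shows counting without strand.

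The counts were tested with edgeR 4.0.16 in R 4.3.3 (TMM, filterByExpr, robust quasi-likelihood fit, all 15 libraries in 5 groups, 10 residual degrees of freedom), with Benjamini-Hochberg adjustment over 21456 genes. The biological coefficient of variation was 12.3%. Alternatives were DESeq2 1.42.0, library totals, no filter, a replicate block, offsets for exon length and GC content (loess, span 0.3), the compared groups alone, each library left out, and adjusted p alone. Subtracting the counts of opposite-strand neighbours was added after seeing the data. Replicates differed by more than counting noise (chi-square per degree of freedom 3.83 to 15.7). The labels do not say that replicates came from separate plants, so the spread behind each p-value is that between these libraries and may be technical.

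Replicate numbers were taken from the labels' titles. Libraries with the same number deviated together from their group means in 30 of 30 pairs (correlation over 0.1 in each, median 0.541, against -0.130 for other pairs, over 10920 genes), and 15 of 15 libraries correlated best with their own number, so the numbers pair the samples, and the block entered an alternative fit. In simulated counts of mock SPAAC against mRNA-seq (21302 genes), 96% of genes raised and 98% of genes lowered by 1.5 on the log2 scale were called, 100% of those changed by 2.5, and 3 unchanged genes. No smaller change, length trend or pairing of replicates was simulated. The 9 genes ran from -1.06 to 0.71 in that comparison, so these rates do not apply to them.

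The 10 genes and the lists (the other ascorbate-pathway, glutathione, peroxiredoxin, thioredoxin and thioredoxin reductase genes) were chosen with earlier results of these data known. From each list the called genes with the largest change were named, up to 2 for each of the first 5 comparisons, or the gene with the smallest adjusted p where none was called, at a mean of at least 10 CPM. Other comparisons share control libraries and are given side by side only. Counting error sets a limit of 3 counts for a library with 0.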

Additional observations from a re-analysis of the deposited data

How the results depend on the processing

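Over the 9 tested genes and 9 comparisons, DESeq2, the replicate block and the subtraction of opposite-strand neighbours (added after seeing the data) kept the direction and the call of all 81 results. The subtraction altered the counts of 2-Cys PRX A and TRX3 alone, by a similar share in each group or by a small one. It could therefore hardly have changed a result. With the replicate block 1 gene was still called in mock SPAAC against mRNA-seq and 3 in mock CuAAC against mRNA-seq, and no other call changed among these genes. In the other lists the block gave 2 called genes in place of 1 for both the ascorbate and the glutathione list in mock CuAAC against mRNA-seq, and 1 in place of 2 for the ascorbate list in depleted SPAAC against mRNA-seq. Of all tested genes the block called 501 higher and 1157 lower in mock SPAAC against mRNA-seq. The numbers against mRNA-seq were 1202 and 2480 in mock CuAAC, and 2406 and 3058 in depleted SPAAC.

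The number of called genes moved as follows. By adjusted p alone it was 7 in mock SPAAC against mRNA-seq, 7 in mock CuAAC against mRNA-seq, 7 in mock SPAAC against mock CuAAC, 8 in depleted against mock SPAAC, 9 in depleted against mock CuAAC, 8 in depleted SPAAC against depleted CuAAC, 7 in depleted SPAAC against mRNA-seq and 6 in depleted CuAAC against mRNA-seq. Of all tested genes 32.4% passed in the first of these, in either direction. Those higher and lower were 20.9% and 24.4% in mock CuAAC against mRNA-seq and 21.5% and 15.1% in mock SPAAC against mock CuAAC. The depletion comparisons had 27.5% and 26.7% (SPAAC) and 24.3% and 23.0% (CuAAC). Depleted SPAAC had 21.7% and 17.3% against depleted CuAAC and 29.4% and 25.6% against mRNA-seq. Depleted CuAAC against mRNA-seq had 21.3% and 23.7%. With length and GC offsets the number of called genes was 0 in mock CuAAC against mRNA-seq, 0 in both depletion comparisons, and 1 each in depleted SPAAC and depleted CuAAC against mRNA-seq. Of all 21456 tested genes the offsets called 672 higher and 1922 lower in mock CuAAC against mRNA-seq. The depletion comparisons had 929 and 656 (SPAAC) and 777 and 669 (CuAAC). Against mRNA-seq there were 1540 and 1594 in depleted SPAAC and 1210 and 2157 in depleted CuAAC. With library totals it was 4 in mock SPAAC against mRNA-seq, 4 in mock CuAAC against mRNA-seq (APX1 gained) and 1 in depleted SPAAC against mRNA-seq. In depleted CuAAC against mRNA-seq it stayed at 2 with DHAR1 in place of TRX3. Of all 21456 tested genes library totals called 6901 higher and 356 lower in mock SPAAC against mRNA-seq. The numbers were 5599 and 1012 in mock CuAAC, 8641 and 985 in depleted SPAAC and 5723 and 1067 in depleted CuAAC, each against mRNA-seq. Without a filter on low counts it was 4 in mock CuAAC against mRNA-seq (APX1, 1.02) and 2 in depleted SPAAC against mRNA-seq (2-Cys PRX A, -0.98, lost). With each library left out in turn it ran from 0 to 1 in mock SPAAC against mRNA-seq, from 3 to 4 in mock CuAAC against mRNA-seq and from 2 to 3 in depleted SPAAC against mRNA-seq, and did not move in the other comparisons.

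Directions turned in these cases. Library totals gave 0.27 for TRX3 in mock SPAAC against mRNA-seq; 0.10, 0.072 and 0.49 for 2-Cys PRX A, 2-Cys PRX B and TRX3 in mock CuAAC against mRNA-seq; 0.062 for SAPX in mock SPAAC against mock CuAAC; 0.52, 0.23, 0.52, 0.54 and 0.14 for APX1, SAPX, TAPX, DHAR1 and PRXQ in depleted SPAAC against mRNA-seq; and 0.45, 0.60, 0.55 and 0.35 for SAPX, TAPX, PRXQ and 2-Cys PRX A in depleted CuAAC against mRNA-seq. That setting gave an all-gene median of 0.80 in mock SPAAC against mRNA-seq, in place of 0.07, and called 6901 genes higher and 356 lower, in place of 407 and 1109.

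Length and GC offsets gave -0.0040 for TAPX in mock SPAAC against mRNA-seq, 0.31 and 0.30 for GPX1 in depleted against mock SPAAC and CuAAC, 0.58 for DHAR1 in depleted SPAAC against mRNA-seq, 0.0013 for PRXQ in depleted CuAAC against mRNA-seq, and interactions of 0.034 for DHAR1 and 0.012 for GPX1. The compared groups alone gave an interaction of -0.039 for PRXQ. With each library left out in turn, SAPX ran from -0.17 to 0.030 in mock SPAAC against mock CuAAC and 2-Cys PRX A from -0.018 to 0.14 in depleted against mock SPAAC, each turning without mock SPAAC replicate 3. In depleted CuAAC against mRNA-seq TAPX ran from -0.065 to 0.077, turning without mRNA-seq replicate 3, and PRXQ from -0.092 to 0.061, turning without mRNA-seq replicate 2. The interaction ran from -0.16 to 0.045 for TAPX, from -0.033 to 0.052 for PRXQ and from -0.10 to 0.051 for GPX1. The cause was not tested. APX2 had 0 counts in the shallowest (mRNA-seq) and deepest (mock SPAAC) library.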
